A study of Mus musculus with 16 samples.

Results

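The hnRNP, SR and Rbm proteins are the 3 large named families of nuclear RNA-binding proteins, and their messenger RNAs were followed in P19 cells after Sfpq was silenced, after let-7a was added, or after both. P19 is a mouse embryonal carcinoma line, a pluripotent tumour line grown in culture. Genes were chosen by symbol, as those whose symbol begins with Hnrnp, Hnrp, Srsf or Sfrs, or with Rbm and a digit. No measured value entered this rule, but earlier results of these data were known when the members were chosen. This gave 71 genes, measured by 122 probes on 140 spots. They comprise 20 hnRNP genes, 11 SR protein genes, 38 Rbm genes and 2 antisense RNAs, Rbm3os and Rbm46os, whose symbols match the same pattern. Of the 71 genes, 66 passed the filter on dim probes and were tested among 19669 genes in all.

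hnRNP proteins coat nascent transcripts and influence splicing, export and stability, often by blocking splice sites. SR proteins carry serine and arginine repeats, bind exonic enhancers and recruit the spliceosome. The Rbm genes are a heterogeneous group that share an RNA recognition motif and act in splicing, RNA modification, decay and ribosome assembly. Sfpq is a nuclear splicing factor and a core protein of paraspeckles, nuclear bodies in which several hnRNP and Rbm proteins are also found. Whether those other proteins' genes respond when Sfpq falls or let-7a is added was the question asked of these arrays.

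The 4 conditions were a control transfection, a let-7a mimic (let-7a), a small interfering RNA against Sfpq (siSfpq), and mimic and small interfering RNA together (let-7a + siSfpq). All cells were P19 and all were transfected, so transfection itself is shared by every condition, and the cells were 1 line. Each condition had 4 arrays, numbered 1 to 4. Arrays 1 and 2 of a condition differed by about as little as repeated spots of a probe (median-based SD 0.059 to 0.076 against 0.075 on the log2 scale), whereas other arrays of a condition differed by 0.118 to 0.388, so arrays 1 and 2 were averaged and counted as 1 sample. Every mean below therefore rests on 3 samples per condition. The labels do not say whether these came from separate cultures, so p-values measure only the spread between these samples. In bulk RNA, fewer cells of a type and less RNA per cell cannot be told apart.

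The mimic carries the let-7a sequence. Its seed, bases 2 to 8 in capitals, is the part that pairs with target RNAs. A RefSeq record of this sequence lies on chromosome 13 (GRCm38.p6, chr13:48538239-48538260, minus strand), and other loci were not looked for.
mmu-let-7a-5p: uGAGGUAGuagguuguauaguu

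The arrays read each gene through probes of 60 bases, and for Rbm33 and Hnrnpa3 the answer depended on which probe was read. The first 30 bases of the probes that carry this difference are shown, with their mm9 positions, all on the plus strand, in order from the 5′ end of each gene.
Rbm33, probe A_55_P1958693, chr5:28679343-28679402: gctatgctcaacattttgccaaacaaccac
Rbm33, probe A_51_P418737, chr5:28680035-28680094: ggaaagcaaagctcatcagggtctacttgc
Rbm33, probe A_55_P1958697, chr5:28742398-28742457: gctgcaaccattatctctgttctttgtgta
Rbm33, probe A_55_P2408330, chr5:28745253-28745312: agtgcttttcagctgtggtgtgcatgtcat
Hnrnpa3, probe A_55_P2020443, chr2:75500576-75500719: tgtgaagtgaaaaaggccctttctaaacaa
Hnrnpa3, probe A_55_P2087225, chr2:75507367-75507426: gacagcagaggtggtctgtaattcaattgt

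Sfpq was checked first. Its log2 intensity was 12.07, 11.98 and 11.98 in control (arrays 1 and 2, array 3, array 4), 12.04, 12.00 and 11.90 with let-7a, 10.55, 11.46 and 10.62 under siSfpq, and finally 11.31, 11.49 and 11.41 in cells given both. Replicate 3 of siSfpq thus stood apart: Sfpq was 0.52 below the same-numbered control there, against 1.52 and 1.36 in the other samples. Over all 3 samples Sfpq fell by 1.13 on the log2 scale with siSfpq (SE 0.19, limma adjusted p = 0.00808), and by 1.44 without replicate 3. With both agents Sfpq was 0.61 below control on average, which did not pass over all 3 samples (SE 0.19, adjusted p = 0.195; 0.0579 with the replicate number as a block) and did pass without replicate 3 (-0.67, adjusted p = 0.00139). Because of this, counts are also given without replicate 3, and the changes of members called without the block either so or by sample. Each array had 33733 to 38464 of 59305 spots well above background. All 8 markers of pluripotent embryonal carcinoma were well above background on every array, with a mean log2 intensity of 11.94 to 12.10 in control, 11.39 to 11.83 in let-7a, 12.18 to 12.23 under siSfpq, and 11.90 to 11.98 for both. Of the lists for other cell types, all 6 fibroblast genes were well above background on every array (8.48 to 8.54 in control, up to 9.16 with both), against 3 of 6 macrophage and 1 of 6 endoderm genes, and the levels of these markers moved too. With siSfpq, Fgf4 (1.11) and Utf1 (0.79) of the pluripotency genes and Dcn (1.12) and Lum (0.81) of the fibroblast genes rose and Sox2 (-0.72) fell. With let-7a, Lin28a (-0.77), Utf1 (-0.70) and Nanog (-0.58) fell and Col1a2 (0.71) rose. The block added Col1a1 (-0.84), Col1a2 (-0.54), Thy1 (1.10), Gata4 (0.81), Foxa2 (1.99) and Cd68 (0.81) with siSfpq, and Tdgf1 (-0.75), Postn (0.84) and Gata6 (1.27) with let-7a. Their part in the results below was not tested.

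When Sfpq was silenced, the fit called 7 of the 66 tested members. Hnrnph1, Srsf5, Srsf9 and Hnrnpa0 fell, and Rbm33 and Rbm48 rose. The seventh, Rbm47, was near background in control and was tested only because it was high in other conditions, so its call is counted but supports nothing here, which leaves 6 members, 2 higher and 4 lower. Over all tested genes 5.74% were called higher and 6.77% lower, so the members were called about as often as other genes. The median change of the 66 members was 0.005 on the log2 scale, beside 0.007 for all genes. At an unadjusted p under 0.05 there were 18 members of 66, or 27.3%, beside 29.9% of all genes.

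With the replicate number as a block, which the arrays' shared deviations call for, 22 members passed, 10 higher and 12 lower, while 17.8% of all genes were called higher and 19.1% lower. Leaving out 3 members that were well above background on at most 2 of the 4 arrays of some condition (Rbm47, Rbm12b1 and the antisense RNA Rbm3os) gave 20, 9 higher and 11 lower. Without replicate 3 there were 35 of 66 (34 without those 3 members), beside 47.2% of all genes in either direction. Without replicate 4 no member was called, all 7 calls being lost, and 4 members had an unadjusted p under 0.05. No other gene was called then either, or 0% of the 19669. The count of members thus moved with the setting, and the count over all genes moved with it.

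**Figure D1:**
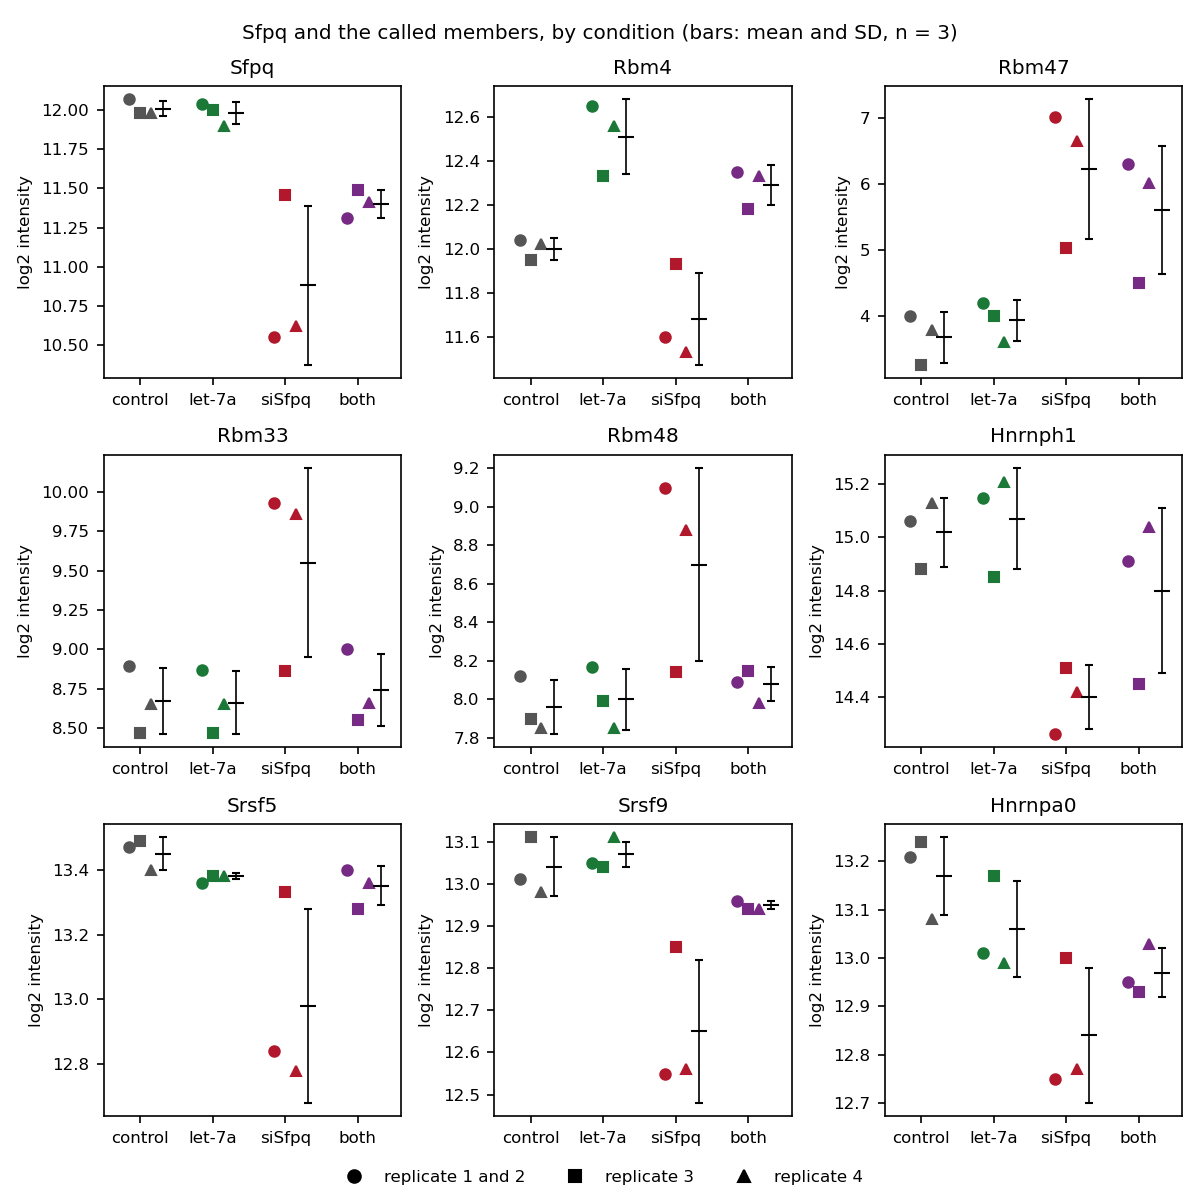
Log2 intensity (y axis) of Sfpq and the 8 members called by the fit, Rbm47 with its control near background among them, in each condition (x axis, "both" is let-7a + siSfpq), with 1 point per sample and bars for the mean and SD (n = 3). In most panels the siSfpq square, replicate 3, lies nearer to control than the other siSfpq points, as in Srsf5 at 13.33 against 12.84 and 12.78.

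Among the hnRNP genes, 2 of 20 were called with siSfpq, both lower, beside 5.74% of all genes higher and 6.77% lower. Hnrnph1, which binds G-rich RNA and regulates splicing, had a log2 intensity of 15.06, 14.88 and 15.13 in control and 14.26, 14.51 and 14.42 with siSfpq. The groups did not overlap, and the change was -0.62 (SE 0.15, limma adjusted p = 0.0248), or -0.75 without replicate 3. Hnrnpa0, a binder of AU-rich RNA, had 13.21, 13.24 and 13.08 in control and 12.75, 13.00 and 12.77 with siSfpq. Again all siSfpq samples were below all control samples, with a change of -0.34 (SE 0.09, adjusted p = 0.0394), or -0.39 without replicate 3. Its upstream probe read 11.78, 11.90 and 11.49 in control and 11.58, 11.51 and 11.52 with siSfpq, so the groups overlapped there. Its downstream probe read 14.64, 14.57 and 14.66 in control and 13.92, 14.49 and 14.02 with siSfpq. Hnrnph1 was read by 1 probe.

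The other 18 hnRNP genes did not pass, and their changes lay between -0.26 for Hnrnph3 and 0.30 for Hnrnpl. With the block Hnrnpf was also called, at 0.23 (SE 0.08, adjusted p = 0.0484), by 0.29, 0.06 and 0.32 in the 3 samples. By structure, 1 of 7 genes of the A/B and D group, 0 of 9 of the C, K, L, M, R and U group and 1 of 4 of the F/H group were called without the block, with medians of -0.05, 0.00 and -0.06. Over all genes 5.74% were called higher and 6.77% lower. The log2 changes of Hnrnpc, Hnrnpk, Hnrnpm and Hnrnpu, all general pre-mRNA binders and none called, were -0.08, 0.00, -0.11 and -0.10.

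Of the 11 SR protein genes, 2 were called lower with siSfpq and none higher, beside 6.77% and 5.74% of all genes. The median over the family was -0.25, beside 0.007 for all genes. Srsf5 stood at 13.47, 13.49 and 13.40 in control and at 12.84, 13.33 and 12.78 with siSfpq, a change of -0.47 (SE 0.12, adjusted p = 0.0330), or -0.63 without replicate 3. Srsf9 stood at 13.01, 13.11 and 12.98 in control and at 12.55, 12.85 and 12.56 with siSfpq, a change of -0.38 (SE 0.09, adjusted p = 0.0234), or -0.44 without replicate 3. Both genes encode SR proteins that act in splice-site choice, and in both the siSfpq samples lay below every control sample, with replicate 3 the nearest.

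With the block, 6 of the 11 were called lower, beside 19.1% of all genes: Srsf1, Srsf3, Srsf4 and Srsf7 joined Srsf5 and Srsf9. Srsf1, the founding member of the family, had 12.51, 12.73 and 12.57 in control and 11.85, 12.53 and 11.84 with siSfpq. Replicate 3 lay inside the control range, and the change of -0.53 had an adjusted p of 0.0501 without the block and 0.0109 with it; without replicate 3 the change was -0.69. For Srsf3, Srsf4 and Srsf7 the changes were -0.25, -0.25 and -0.30, with blocked adjusted p of 0.0435, 0.0121 and 0.0102. By sample Srsf3 differed from the same-numbered control by -0.34, 0.02 and -0.42, so replicate 3 did not share its fall. Srsf4 differed by -0.26, -0.33 and -0.17 and Srsf7 by -0.26, -0.18 and -0.44, below 0 in every sample. Srsf2, Srsf6, Srsf10, Srsf11 and Srsf12 were called in neither fit, with changes from -0.06 to 0.13. The 0.00 of Srsf6 averages 2 probes with opposite differences. Its upstream probe read 13.03, 13.30 and 13.04 in control and 13.52, 13.16 and 13.52 with siSfpq, a difference of 0.27 (SE 0.13, adjusted p = 0.186; 0.118 with the block). The downstream probe read 11.99, 12.39 and 12.21 in control and 11.57, 12.50 and 11.70 with siSfpq, a difference of -0.27 (SE 0.22, adjusted p = 0.446; 0.135 with the block).

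Of the SR genes called with the block, all but Srsf4 had their smallest difference in siSfpq replicate 3, where a shift between probes was also absent. Over all genes with 2 or more probes, the change of the last probe minus that of the first had medians of -0.144, 0.010 and -0.163 in the 3 siSfpq samples, replicate 3 again apart. Srsf4, Srsf5 and Srsf9 were each read by 1 probe, so their calls could not be split by position. On its first probe Srsf1 changed by -0.35 (SE 0.10, adjusted p = 0.0377) and on its last by -0.56 (SE 0.19, adjusted p = 0.0693; 0.0132 with the block). No measure of RNA quality was used here, and its part in this shift and in the SR calls was not tested.

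Of the 34 tested Rbm genes, the fit called 3 with siSfpq, all higher, beside 5.74% of all genes higher and 6.77% lower. Of these 3 genes, Rbm47 was 1. Rbm47 is an RNA-binding cofactor of C-to-U RNA editing. Its probe was well above background on 1 of 4 control arrays, 3 of 4 let-7a arrays and all arrays of siSfpq and of both, so it passed the filter only through the conditions in which it was high. Its log2 intensity was 3.99, 3.25 and 3.78 in control and 7.02, 5.03 and 6.65 with siSfpq. All siSfpq samples were above all control samples, and replicate 3 was the lowest of them. The filter chose it through these values, so its call and fitted differences support nothing here. A second Rbm47 probe, outside the fit because it was dim, was well above background on no control array and on 3 of 4 siSfpq arrays, array 3 being the exception. Its siSfpq samples stood at 5.65, 3.36 and 5.62.

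Rbm48, a protein of the minor spliceosome, had 8.12, 7.90 and 7.85 in control and 9.10, 8.14 and 8.88 with siSfpq. The groups did not overlap, although replicate 3 lay only 0.24 above its own control, and the change was 0.75 (SE 0.21, adjusted p = 0.0431). The other samples lay 0.98 and 1.02 above theirs. Rbm33, which takes part in RNA demethylation and export, had 8.89, 8.47 and 8.65 in control and 9.93, 8.86 and 9.86 with siSfpq. Replicate 3 lay within the control range here, and the mean change was 0.88 (SE 0.26, adjusted p = 0.0467), or 1.13 without replicate 3.

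With the block, 9 Rbm genes were called higher, Rbm47 among them, and 3 lower, beside 17.8% and 19.1% of all genes. The additional ones that were higher were Rbm20, a splicing regulator of titin in heart (0.91), Rbm27 (0.64), Rbm41 (0.48), Rbm18 (0.40), and the ribosome assembly factors Rbm28 (0.37) and Rbm19 (0.34). In siSfpq replicate 3 the differences of Rbm18, Rbm19, Rbm27 and Rbm28 from the same-numbered control were -0.02, 0.05, 0.09 and 0.03, while in the other samples they ran from 0.49 to 0.99. Rbm20 differed by 1.19, 0.27 and 1.27 and Rbm41 by 0.59, 0.14 and 0.70, replicate 3 again the smallest. The lower ones were the splicing regulators Rbm4b (-0.50) and Rbm5 (-0.36) and the cold-inducible Rbm3 (-0.33). Their differences by sample were -0.48, -0.27 and -0.75 for Rbm4b, -0.40, -0.29 and -0.38 for Rbm5 and -0.44, -0.09 and -0.47 for Rbm3. The antisense RNA Rbm3os, the remaining member counted as lower with the block, was well above background on 4 control arrays but only 2 of 4 siSfpq arrays. It passed the filter only through control, so its call and fitted differences support nothing here. By sample it differed from control by -0.31, -1.18 and -1.57.

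By role, 1 of 13 Rbm genes of the spliceosome and of splice-site choice, 1 of 10 of RNA modification, export and decay, 0 of 4 of ribosome assembly and stress and 1 of 6 tested tissue-restricted genes, which is Rbm47, were called without the block. Over all genes 5.74% were called higher and 6.77% lower. The medians of the groups were 0.08, 0.07, 0.06 and 0.45. The 5 genes left out as dim were Rbm11, Rbm31y, Rbm43, Rbm44 and Rbm46os. They were well above background on no array except for 1 array of let-7a + siSfpq for Rbm43. No member probe was saturated.

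**Figure D2:**
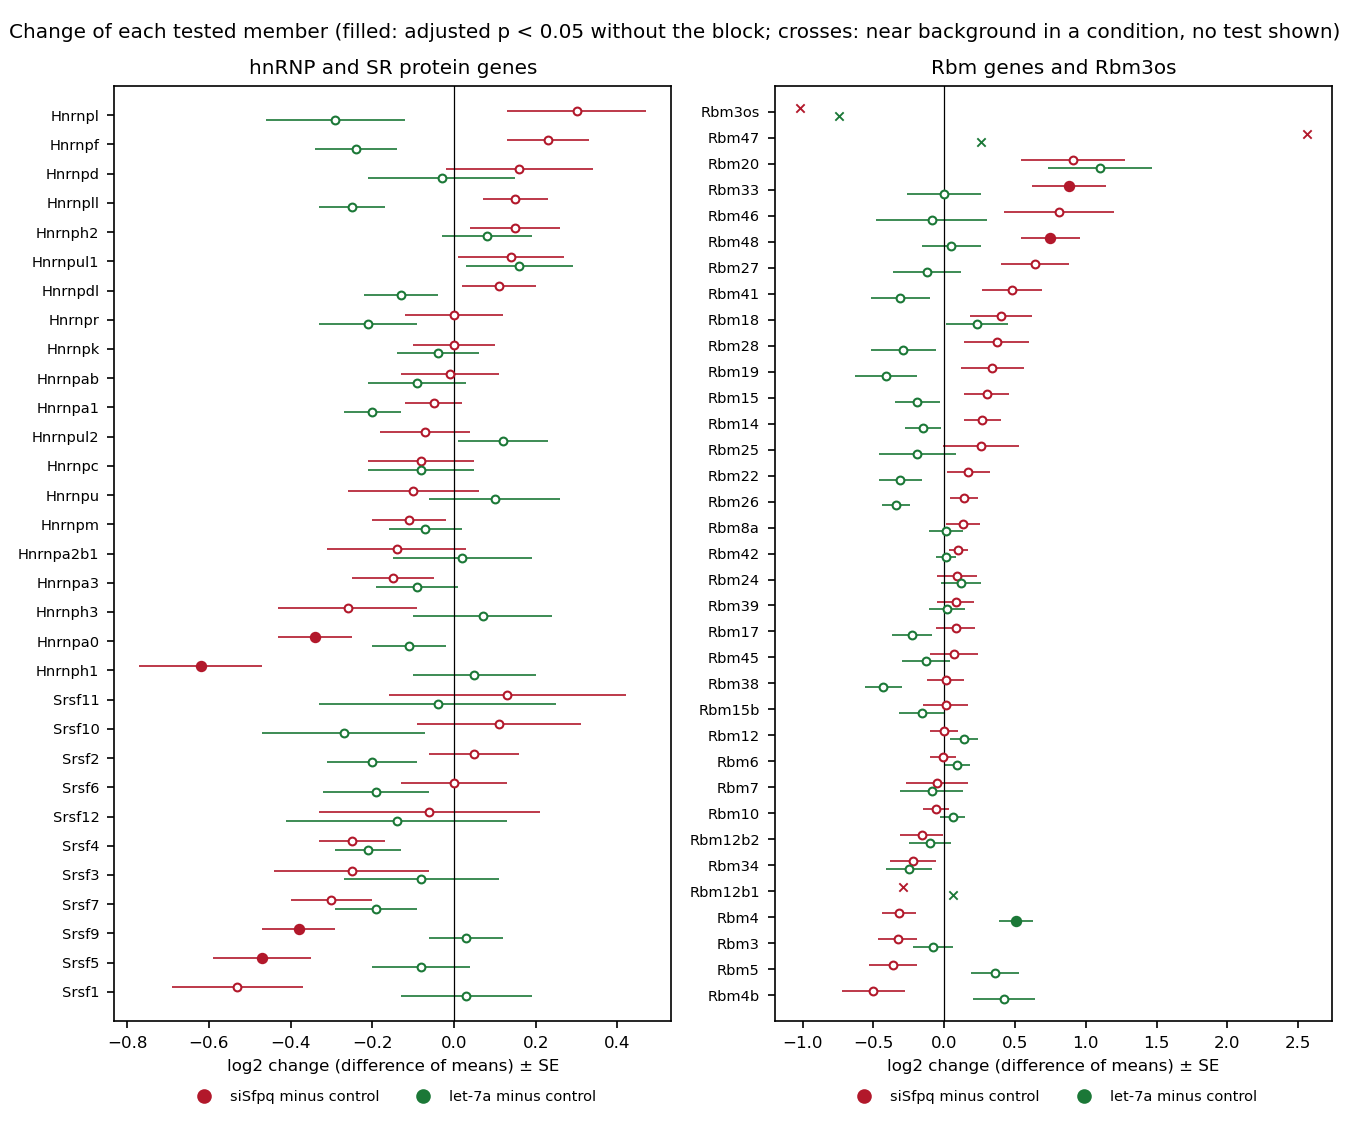
Log2 change with its SE (x axis) of each of the 66 tested members (y axis), in red for siSfpq minus control and in green for let-7a minus control; filled points passed an adjusted p of 0.05 without the block, and crosses, with no error or test shown, are the 3 members near background in some condition, Rbm47, Rbm3os and Rbm12b1. The 6 filled red points lie on both sides of 0, from Hnrnph1 at -0.62 to Rbm33 at 0.88, and Rbm4 at 0.51 is the only filled green point.

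Paraspeckle proteins are the nuclear partners with which Sfpq is most often found. Of 13 members that have been assigned to paraspeckles, Hnrnph1 alone was called with siSfpq, beside 5.74% of all genes higher and 6.77% lower. The median of the 13 was 0.00. The changes of Rbm14, needed for paraspeckle formation, and of Hnrnpk were 0.27 (SE 0.13) and 0.00 (SE 0.10). Of the others, Rbm7, Rbm12, Hnrnpa1, Hnrnpr, Hnrnpul1 and Srsf10 lay between -0.05 and 0.14, and Hnrnph3 at -0.26 (SE 0.17). With the block Rbm4b, Rbm3 and Hnrnpf were also called, as given above, beside 17.8% of all genes higher and 19.1% lower.

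Sfpq has its own small protein family. Pspc1, a member of it, rose by 0.85 with siSfpq (SE 0.08, adjusted p = 0.00251), and the change of Nono, the third member, was 0.01 (SE 0.07). Pspc1 was 11.87, 11.92 and 11.90 with siSfpq against 11.02, 11.01 and 11.12 in control, so its rise was as large in replicate 3 as elsewhere. Among 22 hnRNP and SR proteins that bear other names, 2 rose and 2 fell with siSfpq, beside 5.74% and 6.77% of all genes. Without the block the largest fall was Rbmx at -0.92 (SE 0.21, adjusted p = 0.0204) and the largest rise Syncrip at 0.46 (SE 0.14, adjusted p = 0.0481). With the block 4 rose and 4 fell, beside 17.8% and 19.1% of all genes, the additional ones being Taf15 (0.49), Matr3 (0.36), Ptbp2 (-0.46) and Raly (-0.41). None of 6 tested SR protein kinases and none of 30 core splicing factors was called with siSfpq without the block. Over all genes 5.74% were then called higher and 6.77% lower, and 17.8% and 19.1% with the block. With it, the kinase Clk4 was higher (0.43, adjusted p = 0.00736), and of the core factors U2af1 (0.28), Prpf6 (0.22) and Prpf8 (0.20) were higher and Snrpd3 (-0.17) lower.

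With let-7a, 1 of the 66 members changed. Rbm4, a splicing regulator, had 12.04, 11.95 and 12.02 in control and 12.65, 12.33 and 12.56 with let-7a. All let-7a samples were above all control samples, and the rise was 0.51 (SE 0.12, adjusted p = 0.0291), or 0.58 without replicate 3. Over all genes, 4.49% were called higher and 1.81% lower. The median of the members was -0.083, beside -0.039 for all genes, and 9 members, or 13.6%, had an unadjusted p under 0.05, beside 19.8% of all genes. Without replicate 3, 16 members were called, beside 28% of all genes.

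With the block 12 members passed, 3 higher and 9 lower, while 11% of all genes were called higher and 9.9% lower. Rbm20 was 1.10 higher (SE 0.20), at 6.47, 5.80 and 6.23 with let-7a and 5.45, 4.82 and 4.93 in control. Rbm5 was 0.36 higher. The lower members were Rbm38, a regulator of messenger RNA stability (-0.43), Rbm19 (-0.41), Rbm26 (-0.34), the spliceosome proteins Rbm22 (-0.31) and Rbm17 (-0.23), Srsf10 (-0.27), Hnrnpll (-0.25), Srsf4 (-0.21) and Hnrnpa1 (-0.20). Of 30 core splicing factors, Sf1, which recognises the branch point, fell by 0.45 without the block (SE 0.10, adjusted p = 0.0224). With the block 7 of the 30 were lower and none higher, beside 9.9% and 11% of all genes: Sf1, Prpf4 (-0.43), U2af2 (-0.35), Sf3b4 (-0.34), Snrpd1 (-0.32), U2af1 (-0.27) and Sf3a1 (-0.24). Of the other lists, the block called Srpk1 (-0.41) and Clk1 (0.32) among the kinases, and 5 lower and 1 higher of the 22 hnRNP and SR proteins under other names.

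Rbm4b, a near-identical copy of Rbm4 that lies beside it in the genome, had a change of 0.42 with let-7a and of -0.50 with siSfpq. Neither passed without the block. The Rbm4 probe may read both copies, which was not tested, so the values of the pair may not be independent.

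When both agents were given, no member was called against control, beside 1.34% of all genes, and 5 members had an unadjusted p under 0.05, beside 11.2% of all genes. Without replicate 3 there were 6, beside 16.8%. With the block the fit called 2 members, Rbm47, which is not read as a change for the reason given above, and Srsf4 at -0.36 (SE 0.06, adjusted p = 0.00737), with 4.93% of all genes higher and 2.57% lower. By sample Srsf4 differed by -0.32, -0.40 and -0.37. Rbm47 stood at 6.31, 4.50 and 6.02 with both, above every control sample. Against let-7a alone no member was called either, beside 2.82% of all genes, with 2 members under 0.05 unadjusted, beside 15.6% of all genes. Without replicate 3 there were 11, beside 24.9%. The block called Hnrnpll higher (0.19, by 0.18, 0.20 and 0.20 in the 3 samples) and again Rbm47, which is not read as a change, with 5.49% of all genes higher and 6.75% lower.

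Against siSfpq alone, adding let-7a changed 1 member. Rbm4 was 0.61 higher (SE 0.12, adjusted p = 0.0157), at 12.35, 12.18 and 12.33 with both and 11.60, 11.93 and 11.53 with siSfpq. Over all genes, 5.59% were called higher and 3.7% lower. With the block, 8 members were higher and 14 lower, beside 17.1% and 15.3% of all genes. Without replicate 3, 28 were called, beside 45.4%, and the difference of Rbm4 was 0.78.

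The members higher with both than with siSfpq under the block included Srsf1 (0.47), Srsf5 (0.37), Srsf9 (0.29), Hnrnph1 (0.40), Rbm4b (0.53) and Rbm5 (0.41). In replicate 3 these differed by 0.01, -0.05, 0.09, -0.06, 0.21 and 0.11, and in the other samples from 0.38 for Srsf9 to 0.73 for Rbm4b. Those lower included Rbm46, a germ cell protein (-1.04), Rbm33 (-0.81), Rbm48 (-0.63), Rbm41 (-0.58) and Rbm27 (-0.53). In replicate 3 they differed by -0.13, -0.30, 0.02, -0.22 and -0.06, and without it the differences were -1.50, -1.07, -0.95, -0.75 and -0.77. All of these were smaller in size in replicate 3 than in either other sample. Sfpq itself was 0.52 higher with both than with siSfpq (SE 0.19), by 0.76, 0.03 and 0.79 in the 3 samples, and it was called with the block (adjusted p = 0.0395). The part of this difference in Sfpq in the members' values was not tested. These comparisons share the siSfpq samples with those against control.

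Whether let-7a changed the effect of siSfpq was asked by the interaction. No gene of the 19669 was called, 0% of the table, and 6 members, or 9.09%, had an unadjusted p under 0.05, beside 6.03% of all genes. The block also called no member, with 12, or 18.2%, under 0.05 unadjusted, beside 16.6% of all genes. The 5 largest fitted interactions were those of Rbm20, at -1.33 (SE 0.52), Rbm46, at -0.95 (SE 0.55), and Rbm33, at -0.81 (SE 0.36), and those of Rbm3os and Rbm47, which rest on levels near background and are not given as values. Without replicate 3, 14 members were called, beside 20.8% of all genes, and Rbm20, Rbm33 and Rbm46 were among them.

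The probes of a gene did not always move alike. Rbm33 rose with siSfpq on the 2 upstream probes shown above, and the 2 downstream ones passed only with the block, 1 higher and 1 lower. The latter lie about 63 and 66 kb further along the gene, and the difference between probes was not itself tested. The upstream probes are annotated to an Ensembl transcript and the downstream ones to a RefSeq transcript. Whether they read the same RNA was not tested. The first probe had 5.09, 4.15 and 4.66 in control and 6.97, 5.36 and 6.99 with siSfpq, a rise of 1.81 (SE 0.43, adjusted p = 0.0247; 0.00333 with the block). This probe was well above background on 3 of 4 control arrays. The second had 7.05, 7.02 and 6.76 in control and 9.26, 7.43 and 9.17 with siSfpq, a rise of 1.67 (SE 0.39, adjusted p = 0.0219; 0.00582 with the block). On both, every siSfpq sample was above every control sample.

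The downstream probes of Rbm33 differed by 0.45 (SE 0.18, adjusted p = 0.109; 0.0111 with the block) and -0.41 (SE 0.19, adjusted p = 0.183; 0.0320 with the block). By sample the differences from the same-numbered control were 0.53, 0.33 and 0.50 on the third probe and -0.45, -0.39 and -0.38 on the last, so that each went 1 way in all samples. With both agents the upstream probes stood at 4.83 and 7.02 on average, beside 4.63 and 6.94 in control, and both differed from siSfpq alone (adjusted p = 0.0434 and 0.0310). The gene's mean change of 0.88 is therefore an average over probes with unlike values.

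Hnrnpa3, a core hnRNP of the A/B group, showed an order along 7 probes. From the 5′ end the changes with siSfpq were 0.20, 0.15, -0.04, -0.23, -0.28, -0.35 and -0.49. The first and second probes are annotated to another RefSeq transcript than the later ones. The fifth and the last passed at the probe level (adjusted p = 0.0379 and 0.0310), and with the block so did the fourth and the sixth (0.0291 and 0.0170). The last probe read 12.03, 12.00 and 12.10 in control and 11.42, 11.76 and 11.49 with siSfpq, and 11.98, 11.97 and 12.12 with both. The gene's mean change was -0.15 and was not called.

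**Figure D3:**
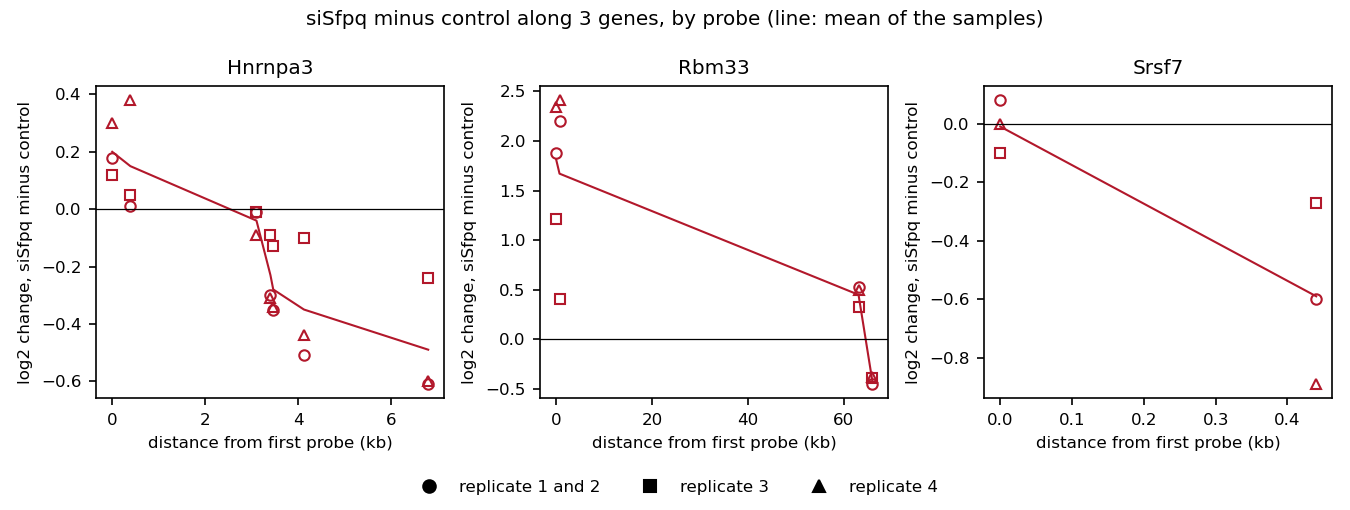
Log2 change with siSfpq against control (y axis) of each probe of Hnrnpa3, Rbm33 and Srsf7 by its distance in kb from the gene's first probe (x axis); symbols are samples and the line joins the means. The last probe is the lowest on average in all 3 genes, at -0.49, -0.41 and -0.59.

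Srsf7 and Hnrnpdl had the same order on 2 probes each. For Srsf7 the upstream probe differed by -0.01 and the downstream one by -0.59 (SE 0.18, adjusted p = 0.0574; 0.00804 with the block). For Hnrnpdl the differences were 0.49 (SE 0.20, adjusted p = 0.132; 0.0104 with the block) and -0.26 (SE 0.17, adjusted p = 0.327; 0.0686 with the block). In siSfpq replicate 3 the Hnrnpdl probes differed from control by 0.09 and 0.04.

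Over the 33 members with 2 or more probes, the change of the last probe was below that of the first in 22 with siSfpq, or 66.7%, with a median difference of -0.166. Over all 4838 such genes this held for 65.8%, with a median of -0.087, so the same direction was seen over all genes, with a smaller median. By sample, the members' median was -0.296, 0.054 and -0.351, and that of all genes -0.144, 0.010 and -0.163, replicate 3 being the sample in which neither lay below 0. With let-7a the last probe was the lower in 10 of the 33 members, or 30.3%, with a median of 0.077, beside 45% and 0.019 over all genes. With both it was the lower in 12 of 33, or 36.4%, with a median of 0.056, beside 48.4% and 0.006. Between both and let-7a alone it was the lower in 17 of 33, or 51.5%, with a median of -0.012, beside 54.4% and -0.016. Between both and siSfpq alone the order turned: the last probe had the lower difference in 3 of 33 members, or 9.09%, with a median of 0.170, beside 29% and 0.114 over all genes. By sample the members' median there was 0.321, 0.049 and 0.308, and that of all genes 0.140, 0.043 and 0.160. This comparison of probes was chosen after the values were seen, and the part of RNA length or labelling in it was not tested.

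**Figure D4:**
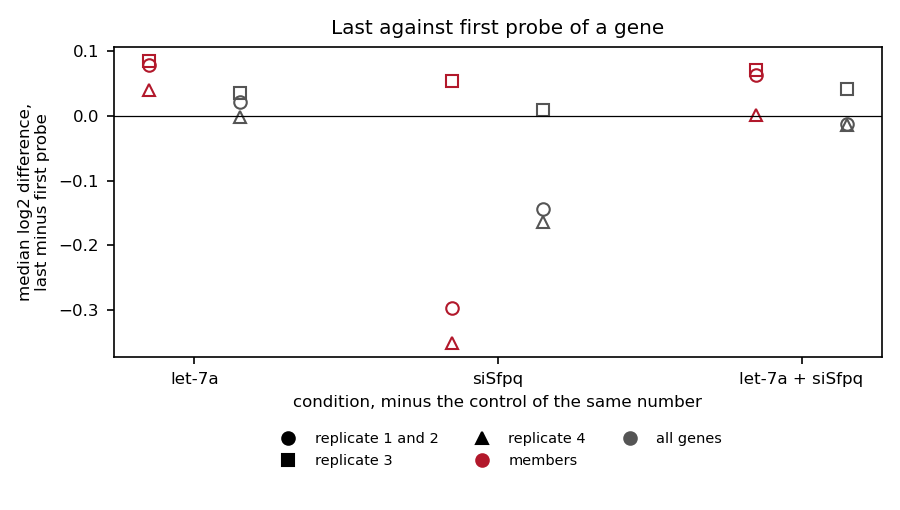
Median log2 difference between the last and the first probe of a gene (y axis), for each condition minus the control of the same number (x axis), over 33 members in red and 4838 genes in grey; symbols are samples. The siSfpq points of replicates 1 and 2 and of replicate 4 lie below 0, at -0.296 and -0.351 for the members, and that of replicate 3 at 0.054.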

How the data were processed

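Messenger RNA of P19 cells was measured on 16 arrays of 1 colour (Cy3), 4 per condition. The authors deposited spot intensities from Agilent Feature Extraction 10.7.3.1, which per the file headers are background-subtracted, detrended and not normalized between arrays. A deposited table holding log2 values, quantile normalized by the authors with limma, served as an alternative.

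The log2 processed intensity was quantile normalized between arrays with limma 3.58.1 in R 4.3.3. Outlier and control spots and probes known only by position were not used, and 42 probes lacked a value on an array. A probe stayed in if some condition had it well above background on each of its 4 arrays, and the probes of a symbol were averaged. Of the 122 member probes, 107 were named through RefSeq accessions and 115 were kept.

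Arrays 1 and 2 of a condition were averaged, since they differed by about as little as repeated spots. The 12 samples entered 1 limma fit with an intensity trend. A call is a two-sided p under 0.05 after Benjamini-Hochberg adjustment over all 19669 genes. An exact permutation test of 3 samples against 3 cannot go below 0.1. Samples of the same number deviated together (correlations 0.292 to 0.713, against -0.627 to 0.183 for other numbers), so the numbers pair the samples, and a fit with the number as a block is given beside the member counts and calls it changes. Arrays 1 and 2 lay on 1 slide and arrays 3 and 4 on the other, each slide holding all 4 conditions.

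On simulated data for siSfpq against control, with 200 of 19669 genes changed by 1 on the log2 scale, 121 were called, with 7 unchanged genes. The R package data.table (version 1.17.8), and Python 3.11.15, numpy 2.4.6, pandas 2.3.3 and matplotlib 3.10.9 were used for tabulation and drawing. Members and lists were chosen with earlier results of these data known. Named were the 6 largest rises and falls among called members, the 5 largest interactions, paraspeckle members, called hnRNP and SR genes, and, of other lists, the Sfpq family and the largest called rise and fall; other members are named where a count is given with the block or where probes differed, chosen after their values were seen. The block fit of single probes and the counts without members near background were also chosen after seeing the data. The alternatives were other scalings, background corrections, filters, blocks, probe choices and left-out arrays.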

Additional observations from a re-analysis of the deposited data

How the results depend on the processing

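Sfpq fell with siSfpq under every alternative run, but was no longer called when only the compared groups were fitted (-1.13) or without replicates 1 and 2 (-0.94); leaving out 1 replicate gave -1.44 to -1.02, uncalled without replicate 4. Counts of called members followed the setting, for let-7a against control, siSfpq against control and let-7a + siSfpq against siSfpq (1, 7 and 1 as reported). With the replicate block they were 12, 22 and 22 (beside 20.9%, 36.8% and 32.4% of all genes), with 16 arrays counted separately 8, 20 and 21 (18.7%, 34.6% and 31.1%), and with both 21, 38 and 32 (37.7%, 54.9% and 53.7%). Leaving out 1 replicate gave 0 to 16, 0 to 35 and 0 to 28, highest without replicate 3 and 0 without replicate 4. Without replicates 1 and 2 all were 0. Scaling to the 75th percentile gave 0, 3 and 2 (5.57%, 14% and 11.3%). With the slide as a block, let-7a against control gave 2 (7.64%) and let-7a + siSfpq against siSfpq gave 3 (12%). With no filter, 2 members were called for let-7a (3.3%) and 2 for siSfpq (4.45%). The brightest probe gave 3 for let-7a (6.19%), no intensity trend gave 4 for siSfpq (11.1%), and fitting only the compared groups gave 2, 0 and 0 (8.13%, 0% and 1.01%). For let-7a + siSfpq against control and against let-7a, where 0 were called, the block (7.5% and 12.2% of all genes) and the 16 arrays (7.18% and 13.2%) each gave 2, both together 11 and 13 (22% and 29.9%), and leaving out 1 replicate 0 to 6 and 0 to 11. The interaction had 0, with 0 to 14 when leaving out 1 replicate and 10 for the 16 arrays with the block (13.9%).

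Over the 8 changes of called members, Rbm47 left out, 98 recomputed values kept their call, 45 lost it and 1 turned: Rbm33 on its last probe (-0.41, and 0.26 in the interaction). The other sign changes were of members that were not called. On the 75th percentile scale Rbm7 was 0.03 and Hnrnpa1 0.10, with 0.09 on a single Hnrnpa1 probe. Rbm12 was -0.01 under normexp and with the authors' values, -0.03 over 16 arrays with or without the block, -0.07 on its brightest probe, and -0.10 to 0.04 without 1 replicate. Hnrnpk was -0.01 under normexp, with the authors' values and on 1 probe, -0.03 on another, -0.05 without replicates 1 and 2, and -0.04 to 0.10 without 1 replicate. Hnrnpr was -0.02 over 16 arrays with or without the block, -0.15 on 1 probe, and -0.03 to 0.02 without 1 replicate. Srsf10 was -0.15 on 1 probe. The causes were not tested, and 3 samples per condition limit the precision.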
